A study of Mus musculus with 6 samples.

Results

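The genes described here are *Txnip*, the 5 other alpha-arrestin genes *Arrdc1* to *Arrdc5*, and the 2 thioredoxin genes *Txn1* and *Txn2*. They were measured by RNA-Seq in mouse cerebellum. The 8 genes were taken by name from a table of 53715 genes, and all 8 were found in it. *Txnip* was chosen by its lower expected counts in the knockout cerebellum of these same mice, so its difference is described below without a test, whereas the other 7 were listed by protein family or by binding to the *Txnip* product. The samples were cerebella of 4-week-old male mice that the labels give as C57BL/6 and the methods as bred from parental lines on a C57BL/6J background, from 3 control and 3 *Slc39a8*-NSKO mice. *Slc39a8*, also called *Zip8*, encodes a transporter that brings manganese and other divalent metals into cells. The *Slc39a8*-NSKO mice carried floxed *Slc39a8* alleles and Cre recombinase under the Synapsin I promoter, which is active in neurons, so glia, vessel cells and other non-neuronal cells of the dissected tissue were not targeted. The study noted that Cre activity can vary between brain regions. The controls are labelled wild type in the sample labels and described mostly as *Slc39a8* fl/fl without Cre in the study. If they were floxed, both groups shared the floxed allele. The methods give 3 mice per genotype but a figure legend speaks of technical triplicates, so p-values below measure the spread between these 6 samples.

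Alpha-arrestins are adaptor proteins that share the arrestin fold. Most of them carry motifs that recruit ubiquitin ligases of the NEDD4 family to membrane proteins, which are then internalised or degraded. The TXNIP protein stands out because it also forms a disulfide with reduced thioredoxin, the small redox protein that passes electrons from NADPH, by way of thioredoxin reductase, to peroxiredoxins and other targets. TXNIP also reduces glucose uptake by drawing glucose transporters from the cell surface, and its gene is among those that respond most strongly to glucose, through the factors MondoA and ChREBP and their partner MLX at paired E-boxes in the promoter.

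Because this promoter is the best described feature of the family, the RefSeq sequence of the 250 bases before the start site is shown for *Txnip*, for *Arrdc4*, its close relative that also responds to glucose, and for *Arrdc3*, the other family member whose levels did not overlap between genotypes. The build is GRCm38.p6 and each sequence reads 5′ to 3′ on the gene's own strand. They lie at chr3:96557707-96557956 on the plus strand, chr7:68749239-68749488 on the minus strand and chr13:80883134-80883383 on the plus strand, respectively. Capitals mark the E-box forms CACGAG and CACGTG, the CCAAT box and the forkhead core GTAAACA, on either strand, so that ATTGG is a CCAAT box read backwards.
Txnip: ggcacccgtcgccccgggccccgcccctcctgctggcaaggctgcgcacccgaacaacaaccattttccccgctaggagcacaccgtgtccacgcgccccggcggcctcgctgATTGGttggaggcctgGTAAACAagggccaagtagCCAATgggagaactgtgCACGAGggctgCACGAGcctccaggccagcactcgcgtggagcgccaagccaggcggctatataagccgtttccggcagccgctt
Arrdc4: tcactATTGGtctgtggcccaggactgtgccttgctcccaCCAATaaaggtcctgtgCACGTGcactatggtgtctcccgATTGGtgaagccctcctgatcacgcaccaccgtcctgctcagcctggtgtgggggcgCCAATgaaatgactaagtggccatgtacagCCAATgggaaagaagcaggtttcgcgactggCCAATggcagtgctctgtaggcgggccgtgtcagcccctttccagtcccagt
Arrdc3: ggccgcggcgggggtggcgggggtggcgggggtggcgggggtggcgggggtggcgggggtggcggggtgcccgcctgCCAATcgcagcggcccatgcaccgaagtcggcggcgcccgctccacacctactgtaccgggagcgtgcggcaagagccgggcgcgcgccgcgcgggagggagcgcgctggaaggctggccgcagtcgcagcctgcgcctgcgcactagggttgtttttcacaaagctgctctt

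All 8 genes had an entry, with 10 promoter windows between them of 250 bases before to 50 bases after a start site. The *Txnip* window held 2 copies of CACGAG, from −85 to −80 and from −74 to −69 relative to the start site. Together these formed a paired E-box of the carbohydrate response element form, searched as 2 E-boxes that may differ at the fifth base and are spaced as in *Txnip*, a pair that contains both copies. It was found in 16 of 32851 mouse promoter windows of the same length (0.0487%), whereas a single CACGAG was found in 6.47% and CACGTG in 7.15%. The *Txnip* window also held 2 CCAAT boxes (present in 37.4% of windows) and 1 GTAAACA (3.65%). No other member had the spaced pair. *Arrdc4* had 1 CACGTG and 6 CCAAT boxes, *Arrdc1* had 2 copies of CACGAG, and *Arrdc2* had 1 CACGAG and 3 CCAAT boxes. *Arrdc3* had 3 windows, of which 2 overlap each other and share 1 CCAAT box, and none of them held either E-box form. *Txn1* had none of the capitalised motifs, and *Txn2* had 1 CCAAT box. The cyclic AMP response element TGACGTCA (in 1.79% of windows) was in no window of a member, its core TGACG (20.8%) was in windows of *Txn2* and *Arrdc3*, and TATAAA (13.6%) was in that of *Txn1*. These are matches of letters, and no binding was measured.

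The 6 libraries held between 14431260 and 20844267 counts. The targeted gene, *Slc39a8*, is expressed at a low level in whole cerebellum and had 99, 46 and 44 counts in the controls and 38, 40 and 41 in the *Slc39a8*-NSKO mice. Scaled to a library of 1000000 counts (CPM), this was 3.60 ± 1.04 (SD, n = 3) against 2.04 ± 0.14, a log2 fold change of −0.83 with an adjusted p of 0.534 (edgeR quasi-likelihood test). The 3 control values were all above the 3 knockout values. Of the 8 members, 7 had enough counts to be tested, among 16330 genes that were. Of the 6 tested members other than *Txnip*, edgeR's quasi-likelihood test called 0 at an adjusted p below 0.05, against 16 of 16330 genes over the whole transcriptome (0.098%), of which 12 were lower (0.0735%) and 4 higher (0.0245%) in the *Slc39a8*-NSKO mice, and 881 genes had an unadjusted p below 0.05. Among these 6, 1 had an unadjusted p below 0.05, namely *Arrdc3*. DESeq2, which the study used, called 1 of the 6, *Arrdc3*, which was lower, against 37 of 27181 genes (0.136%), of which 29 were lower (0.107%) and 8 higher (0.0294%), and limma-voom called 0. Of the same 6, the groups did not overlap for 1, again *Arrdc3*, which was lower in the *Slc39a8*-NSKO mice, against 1689 of 16330 genes whose groups did not overlap in either direction (10.3%) and 859 that were lower without overlap (5.26%).

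*Txnip* (ENSMUSG00000038393.14, chr3:96557957-96561883, plus strand) was lower in the cerebellum of *Slc39a8*-NSKO mice. Its level was 37.6, 34.3 and 47.2 CPM in controls 1 to 3 and 19.8, 30.7 and 24.2 CPM in *Slc39a8*-NSKO mice 1 to 3. The highest knockout value, in mouse 2, was still below the lowest control value, also in mouse 2, so the groups did not overlap, although these values were 3.52 CPM apart. The means were 39.7 ± 6.73 (SD, n = 3) and 24.9 ± 5.52 CPM, which puts the knockout mean at 62.7% of the control mean. The log2 fold change was −0.67 with a standard error of 0.141. With each mouse left out in turn it lay between −0.85, without *Slc39a8*-NSKO mouse 2, and −0.53, without *Slc39a8*-NSKO mouse 1 or control 3. Among the tested members only *Arrdc2* varied more within a group than *Txnip*, which had a coefficient of variation of 16.9% in controls and 22.2% in *Slc39a8*-NSKO mice. In whole tissue, fewer cells that express a gene and less RNA per cell cannot be told apart.

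**Figure D1:**
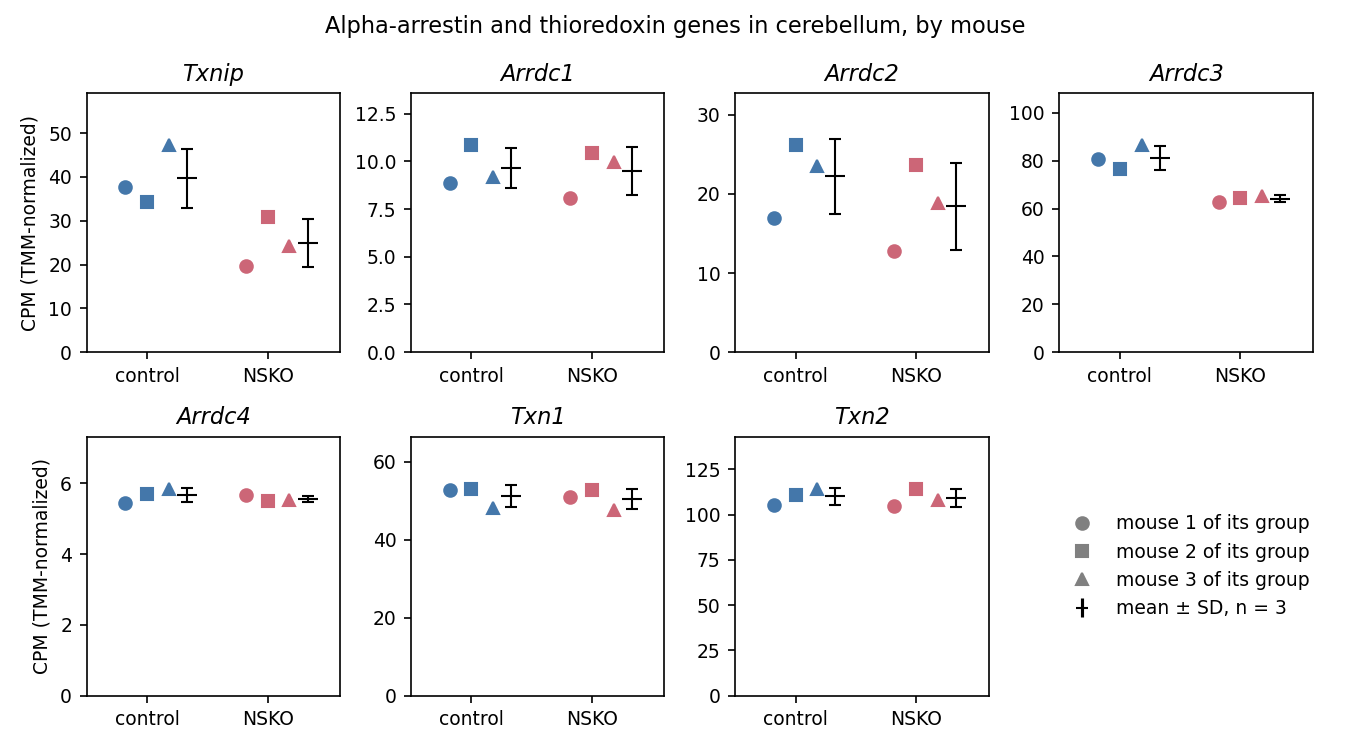
Level of each tested member in every mouse, in CPM on the vertical axis, with a panel per gene and its own scale. Points are the 3 control and 3 Slc39a8-NSKO mice and bars show the mean and SD. The groups are apart for Txnip and Arrdc3 and overlap for the other tested members.

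The *Txnip* values in the table are not whole numbers in 5 of the 6 mice, whereas the values of the other 7 members are whole in every mouse. The counts of *Txnip* were 779.88, 492.73 and 735 in controls 1 to 3 and 394.82, 598.76 and 454.81 in *Slc39a8*-NSKO mice 1 to 3. Fractions of this kind arise where a read fits more than 1 gene and is divided between them by estimation, and 5319 of the 53715 genes had such a value. *Gm15441* (ENSMUSG00000074398.5, chr3:96555765-96566801) is an antisense transcript on the minus strand that spans the whole of *Txnip* and shares 606 exon bases with it, 19.4% of the exon bases of *Txnip*. Its counts were 9.12, 3.27 and 0 in controls 1 to 3 and 3.18, 4.24 and 9.19 in *Slc39a8*-NSKO mice 1 to 3. Added mouse by mouse, the counts of both genes came to 789, 496, 735, 398, 603 and 464, each whole to within 0.01. The fractions of *Txnip* and *Gm15441* therefore complement each other in each mouse. *Gm15441* took at most 1.98% of the sum. The log2 fold change of the sum was −0.67, the value for *Txnip* alone. Whether the counting used the strand of the reads is not given in the sources used here, so reads of the shared bases cannot be assigned to *Txnip* or *Gm15441* with certainty.

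Of 9 neighbours of *Txnip* on chromosome 3, *Gm15441* included, 7 had enough counts to be tested. edgeR's test called 0 of them, 0 had an unadjusted p below 0.05, DESeq2 called 0, and the list's median log2 fold change was −0.04 against 0.0011 over all genes tested. The lowest unadjusted p belonged to *Lix1l*, at 42.5 ± 1.99 CPM in controls and 40.0 ± 2.58 in *Slc39a8*-NSKO mice (log2 fold change −0.09). *Ankrd35* (−0.15) and *Itga10* (−0.17), which encodes an integrin alpha subunit, came next, both with overlapping groups.

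*Arrdc3* (ENSMUSG00000074794.10, chr13:80883384-80896042, plus strand), whose product links beta-adrenergic receptors to NEDD4-family ligases, was the other member with separate groups. Its level was 80.5, 76.5 and 86.5 CPM in controls 1 to 3 and 62.6, 64.3 and 65.4 CPM in *Slc39a8*-NSKO mice 1 to 3. All 3 knockout mice lay within 2.76 CPM of each other and at least 11.1 CPM below the lowest control. The means were 81.2 ± 5.03 and 64.1 ± 1.39 CPM (SD, n = 3), or 79.0% of the control mean. The log2 fold change was −0.34 (95% confidence interval −0.47 to −0.21). It missed the threshold with edgeR after adjustment over all genes (unadjusted p = 8.35e-05, adjusted p = 0.0628) and passed it with DESeq2 (adjusted p = 0.00665). The exact two-sided permutation test gave p = 0.1, the smallest value that 3 against 3 mice allow. The adjusted p lay between 0.0386, without control 2, and 0.282, without control 3, when each mouse was left out, and the log2 fold change between −0.38 and −0.29.

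*Arrdc2* (ENSMUSG00000002910.11, chr8:70835129-70839720, minus strand) had the widest spread among the tested members. It was measured at 16.9, 26.1 and 23.6 CPM in controls 1 to 3 and at 12.8, 23.7 and 18.8 CPM in *Slc39a8*-NSKO mice 1 to 3. Mouse 1 was the lowest of its group in both genotypes, and the groups overlapped. The means were 22.2 ± 4.78 and 18.4 ± 5.46 CPM, and the log2 fold change of −0.26 had a 95% confidence interval from −0.67 to 0.15 (edgeR adjusted p = 0.994, exact permutation p = 0.6). Without *Slc39a8*-NSKO mouse 1 the log2 fold change was −0.05, so most of the difference rested on that mouse.

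*Arrdc1* (ENSMUSG00000026972.15, chr2:24925352-24935252, minus strand), whose product drives the budding of vesicles from the plasma membrane, was measured at 8.88, 10.8 and 9.19 CPM in controls and 8.06, 10.4 and 9.99 CPM in *Slc39a8*-NSKO mice. The ranges of the groups largely coincided, and the log2 fold change was −0.02 (95% confidence interval −0.31 to 0.28, edgeR adjusted p = 0.998, exact permutation p = 0.9). *Arrdc4* (ENSMUSG00000042659.15, chr7:68736995-68749241, minus strand) was measured at 5.45, 5.70 and 5.85 CPM in controls and 5.66, 5.49 and 5.52 CPM in *Slc39a8*-NSKO mice. Its log2 fold change was −0.03 (95% confidence interval −0.33 to 0.27, edgeR adjusted p = 0.997, exact permutation p = 0.5). *Arrdc5* (ENSMUSG00000073380.1, chr17:56294111-56300286, minus strand) had 0 counts in 5 mice and 2 in *Slc39a8*-NSKO mouse 2. A count of 0 allows up to 3 counts in a library, counting error only, so no difference in *Arrdc5* was detectable at this depth.

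**Figure D2:**
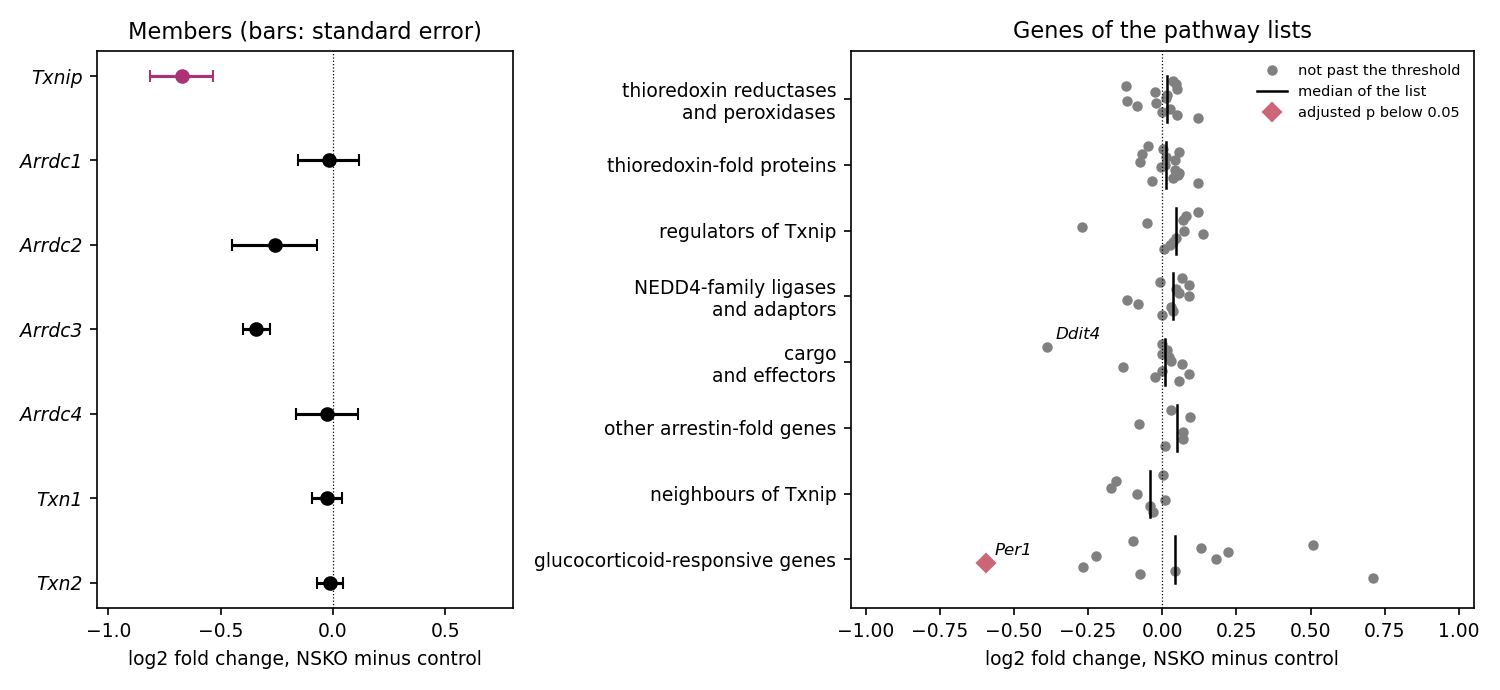
Log2 fold change, Slc39a8-NSKO minus control, from the edgeR fit on all genes. The left panel shows each tested member and the right panel the tested genes of the pathway lists described below. Bars of the members are standard errors. In the right panel, lines mark the median of each list and diamonds mark genes past the threshold of edgeR's test. The 95% confidence intervals, which are not drawn, were clear of 0 for Arrdc3 (log2 fold change −0.34). They included 0 for Arrdc1, Arrdc2, Arrdc4, Txn1 and Txn2. The standard-error bar of Arrdc2 does not reach 0.

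The thioredoxin genes were measured precisely. *Txn1* (ENSMUSG00000028367.5, chr4:57943373-57956411, minus strand), the cytosolic thioredoxin that TXNIP binds, was at 52.7, 53.1 and 48.1 CPM in controls 1 to 3 and 50.8, 52.8 and 47.6 CPM in *Slc39a8*-NSKO mice 1 to 3. *Txn2* (ENSMUSG00000005354.16, chr15:77915047-77929006, minus strand), the mitochondrial thioredoxin, was at 105, 111 and 114 CPM in controls 1 to 3 and at 105, 114 and 108 CPM in *Slc39a8*-NSKO mice 1 to 3. The groups overlapped for both genes. The log2 fold change was −0.03 for *Txn1* (95% confidence interval −0.17 to 0.12, edgeR adjusted p = 0.994, exact permutation p = 0.6) and −0.01 for *Txn2* (95% confidence interval −0.14 to 0.11, edgeR adjusted p = 0.997, exact permutation p = 0.8).

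**Figure D3:**
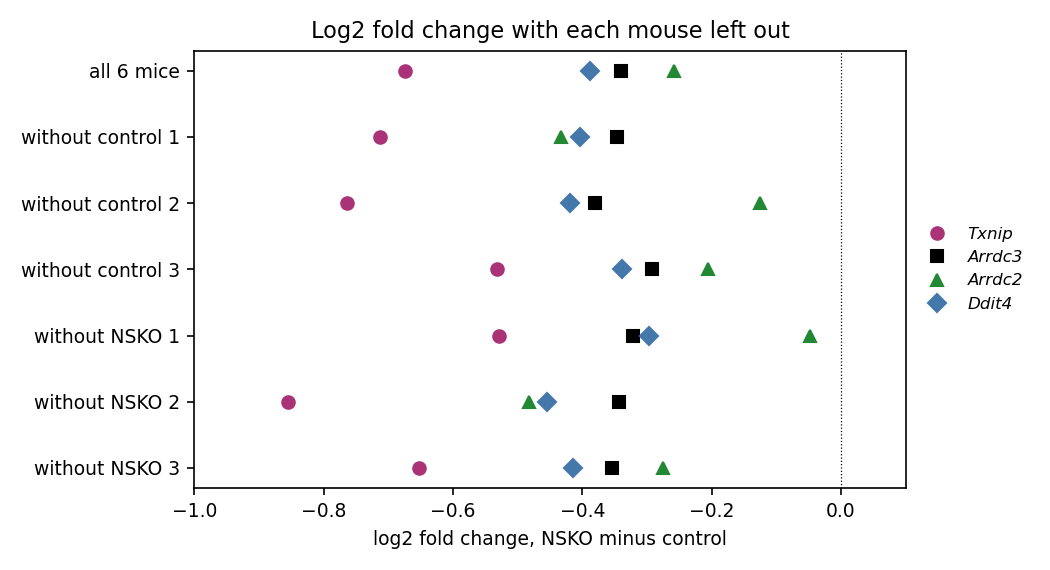
Log2 fold change of Txnip, Arrdc3, Arrdc2 and Ddit4, Slc39a8-NSKO minus control, from all 6 mice and from 5 mice with 1 omitted. Ddit4 is not a member and comes from a pathway list described below. Txnip stays between −0.85 and −0.53, Arrdc3 between −0.38 and −0.29 and Ddit4 between −0.45 and −0.30, while Arrdc2 moves from −0.48 to −0.05.

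To compare levels between genes, CPM was divided by the length of each gene's longest transcript with a consensus coding sequence. On this CPM per kilobase scale the order in controls was *Txn2* (53.8), *Txn1* (48.8), *Arrdc3* (19.8), *Txnip* (14.0), *Arrdc2* (9.43), *Arrdc1* (5.79), *Arrdc4* (1.45) and *Arrdc5* (0). Each neighbouring pair in that order had ranges over the 3 controls that did not overlap. In the *Slc39a8*-NSKO mice the order was the same, but *Txnip* (8.80) and *Arrdc2* (7.82) overlapped, and so did *Arrdc2* and *Arrdc1* (5.70). With the union of all exons as the length, an alternative chosen after the data were seen, *Txn1* stood above *Txn2*, and *Arrdc3* and *Txnip* overlapped in controls.

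Summed over the 6 alpha-arrestin genes, the level was 46.9, 49.8 and 54.8 CPM per kilobase in controls 1 to 3 and 34.0, 44.4 and 39.9 in *Slc39a8*-NSKO mice 1 to 3, with the groups apart. Without *Txnip*, the sum was 36.5 ± 2.54 against 30.6 ± 3.32 CPM per kilobase, and whether the groups touched depended on the length used. *Txnip* made up 28.4, 24.3 and 30.5% of the alpha-arrestin total in controls 1 to 3 and 20.6, 24.5 and 21.4% in *Slc39a8*-NSKO mice 1 to 3, and these shares overlapped because *Slc39a8*-NSKO mouse 2 lay just above control 2. The ratio of *Txnip* to *Txn1* per kilobase was 0.265, 0.240 and 0.365 in controls and 0.145, 0.217 and 0.189 in *Slc39a8*-NSKO mice, without overlap. These sums and ratios contain *Txnip* or *Arrdc3* and were not tested.

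**Figure D4:**
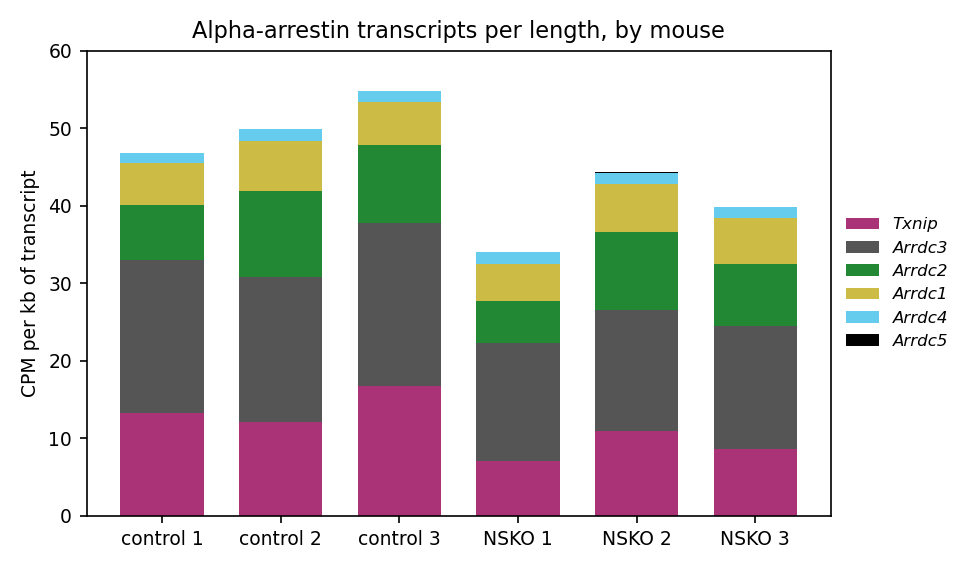
Level of each alpha-arrestin gene in CPM per kilobase of its longest transcript with a consensus coding sequence, stacked in a bar for every mouse. Arrdc3 makes up the largest part of the bar in every mouse, and the mean of Arrdc4 is 1.45 in controls. The order of the group means was the same in both genotypes.

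Mouse to mouse, *Arrdc3* followed *Txnip* most closely among the members, with a Pearson r of log2 CPM over the 6 mice of 0.912. *Arrdc2* (0.665) and *Txn2* (0.564) came next, and *Arrdc4* (0.333), *Arrdc1* (0.270) and *Txn1* (0.0538) followed least. These r values include the difference between genotypes, and with 6 mice they are a description of these libraries. Among 10288 genes with a mean of at least 10 CPM, those most like *Txnip* were *Cryz* (0.994), *Pou2f2* (0.993), *Sh3gl3* (0.983), *Ddit4* (0.979) and *Impact* (0.967). *Cryz* encodes quinone reductase zeta-crystallin, *Pou2f2* the transcription factor OCT2, *Sh3gl3* an endophilin and *Impact* an inhibitor of the kinase GCN2. *Cryz* and *Impact* moved little between genotypes, with log2 fold changes of −0.09 and −0.11.

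The surrounding pathway was examined by lists. Of 14 thioredoxin reductases, peroxiredoxins and related reductases, all 14 were tested and 0 passed edgeR's test, 0 had an unadjusted p below 0.05, and the median log2 fold change was 0.01. *Txnrd1*, the cytosolic thioredoxin reductase, was at 61.5 ± 3.47 CPM in controls and 61.5 ± 1.43 in *Slc39a8*-NSKO mice. The lowest p belonged to *Prdx6*, a peroxiredoxin, at 134 ± 2.91 against 127 ± 0.46 CPM (log2 fold change −0.08, edgeR adjusted p = 0.983), followed by *Msrb2* (−0.12), a methionine sulfoxide reductase, and *Prdx4* (−0.12). Only *Prdx6* in this list had groups that did not overlap. Of 17 further proteins with a thioredoxin fold, 15 were tested and 0 passed or had an unadjusted p below 0.05, with a median of 0.01 and with *Tmx2* (0.06), *Tmx3* (−0.07) and *Txndc12* (−0.07) lowest in p. The genes that work with or resemble thioredoxin thus had log2 fold changes between −0.12 and 0.12.

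Of 11 regulators of *Txnip* transcription, 0 passed edgeR's test, 0 had an unadjusted p below 0.05 and the median log2 fold change was 0.05. *Mlxip*, which encodes MondoA, was at 53.9 ± 5.0 CPM in controls and 51.9 ± 1.45 in *Slc39a8*-NSKO mice (−0.05), and *Mlxipl*, which encodes ChREBP, was near 1 CPM in both groups (1.15 ± 0.52 and 0.957 ± 0.22). *Nfyb* (0.14), a subunit of the factor that binds CCAAT boxes, *Foxo1* (0.12) and *Foxo3* (0.08), which bind the forkhead core, had the lowest p in the list and all overlapped between groups. Of 11 NEDD4-family ligases and adaptors, 0 passed and 0 had an unadjusted p below 0.05 (median 0.04). *Nedd4l* (−0.12), *Nedd4* (0.09) and *Itch* (0.09), the ligase that ubiquitinates TXNIP, had the lowest p, each with overlapping groups. In this list 2 genes had groups that did not overlap, *Smurf1* (−0.08) and *Ndfip2* (0.06), against 10.3% of all genes tested. Of 8 other genes with an arrestin fold, 6 were tested and 0 passed or had an unadjusted p below 0.05 (median 0.05), with *Arrb2* (0.09), a beta-arrestin, *Vps26b* (0.07), a retromer subunit, and *Rgp1* (−0.08) lowest in p. Only *Vps26a* (0.07) had groups that did not overlap.

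Of 13 cargo proteins and effectors, 12 were tested, 0 passed edgeR's test and 1 had an unadjusted p below 0.05, with a median log2 fold change of 0.01. That gene was *Ddit4*, a stress-induced inhibitor of the mTORC1 kinase, which was also among the genes most like *Txnip* above. That likeness includes the difference between genotypes, so it is not separate evidence for the difference given here. *Ddit4* was at 108, 106 and 118 CPM in controls 1 to 3 and 73.8, 92.1 and 87.6 CPM in *Slc39a8*-NSKO mice 1 to 3. The groups did not overlap. The log2 fold change of −0.39 (95% confidence interval −0.56 to −0.22) had an adjusted p of 0.120 with edgeR and of 0.00473 with DESeq2. *Slc2a1*, the glucose transporter GLUT1 that TXNIP draws from the surface, was at 129 ± 6.97 against 137 ± 16.1 CPM (0.09), and *Prkaa2*, a catalytic subunit of AMPK, had a log2 fold change of −0.13.

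Of 11 genes that respond to glucocorticoids, as *Txnip* does in other tissues, 1 fell and 0 rose, 3 had an unadjusted p below 0.05, and the median was 0.04. *Per1*, a clock gene, fell from 177 ± 28.3 to 117 ± 10.7 CPM (log2 fold change −0.59, standard error 0.0986, edgeR adjusted p = 0.0435). The paper had already reported lower *Per1* from these same RNA-Seq samples, so this call is not a separate finding. The paper also reported lower *Per1* by qPCR in a separate set of RNA samples. The call on *Per1* was kept with DESeq2 (adjusted p = 1.98e-06), with a replicate block (0.00796) and without control 1 (0.000743). It was also kept with other normalizations, other filters and unrounded counts. The call was lost when control 2, control 3 or any *Slc39a8*-NSKO mouse was left out, and with limma-voom. *Fkbp5*, the co-chaperone that glucocorticoids induce, went the other way without passing the test, at 11.6 ± 2.69 against 16.4 ± 4.38 CPM (0.51, adjusted p = 0.860), and *Sgk1*, a kinase, was at 132 ± 20.6 against 109 ± 14.1 CPM (−0.27, adjusted p = 0.867).

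Markers of cell types were counted in the same fit. Neither the 10 endothelial markers (186 to 210 CPM summed in controls, 188 to 206 in *Slc39a8*-NSKO mice) nor the 5 each of Purkinje cells, granule cells, oligodendrocytes and erythroid cells held a gene that passed the test, and their summed ranges overlapped. The 5 markers of Bergmann glia and astrocytes were all higher in the *Slc39a8*-NSKO mice without passing the test (summed, 1802 to 2100 against 2133 to 2205 CPM), as were the 5 of microglia (66.1 to 74.6 against 77.5 to 81.3 CPM), and in both the summed ranges were apart. The 5 choroid plexus markers were also higher without passing (764 to 1102 against 897 to 1544 CPM). Of 5 cardiac muscle genes, 4 were tested and 3 rose, *Myh6*, *Tnnt2* and *Actc1*, and the summed level was 2.03 to 2.92 CPM in controls and 11.1 to 13.1 CPM in *Slc39a8*-NSKO mice. No listed marker was at 0 in every mouse. The part of these shifts in the levels of *Txnip* and *Arrdc3* was not tested.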

How the data were processed

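Cerebellar RNA from 3 control and 3 *Slc39a8*-NSKO mice was measured by paired-end RNA-Seq after oligo-dT cDNA synthesis. The authors deposited 1 table of expected counts per gene for all 6 mice, made from reads aligned with STAR to an Ensembl mouse reference. The submitters' processing notes also list FastQC, RSEM, DESeq2 and mm10, without versions. The sample labels name a directional library kit and the methods a kit without that word. A count divided between overlapping genes is an estimate, and totals of 14431260 to 20844267 limit the precision of low genes.

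The 92 spike-in rows, with at most 5 counts in a library, were left out. Of 53715 genes, 53620 matched the GENCODE M21 annotation (GRCm38, the same assembly as mm10), which gave names and positions. Expected counts were rounded and tested with edgeR 4.0.16 (R 4.3.3), using TMM normalization, filterByExpr, its quasi-likelihood test and p-values adjusted by Benjamini-Hochberg over 16330 genes at a threshold of 0.05. The fit was tested on simulated data. CPM values were scaled to the library total multiplied by its TMM factor, and correlations used log2 CPM with a prior count of 2. Exact two-sided permutation tests used log2(CPM + 0.5). Alternatives were DESeq2 1.42.0, limma-voom (limma 3.58.1), other normalizations, other filters, unrounded counts, a replicate block, *Gm15441* summed or left out, and each mouse left out. The members and lists were chosen with earlier results of these data known. Besides the members, *Gm15441* and *Slc39a8*, the genes named were, in each pathway list, those past the threshold and, where these were fewer than 3, those with the lowest p up to 3, and the 5 most like *Txnip*. *Txnrd1*, *Mlxip* and *Mlxipl* were named for their roles. Promoter sequences were from RefSeq (GRCm38.p6).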

Additional observations from a re-analysis of the deposited data

How the results depend on the processing

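The log2 fold change of *Txnip* was negative under all 14 alternatives (−0.85 to −0.53), as was that of *Arrdc3* (−0.38 to −0.29). Because the groups of both genes were apart, leaving out a mouse could not reverse either sign. *Txnip* was moreover chosen for its lower values, so its range is a description. Of the tested members other than *Txnip*, the count past the threshold, 0 with edgeR, was 1 with DESeq2, 1 without the filter on low counts, 1 with a replicate block and 0 to 1 when each mouse was left out, and the gene was *Arrdc3* (adjusted p of 0.000317 without the filter, 0.0380 with the block and 0.0386 without control 2). At a threshold of 0.1, edgeR's test called 1, again *Arrdc3* (adjusted p = 0.0628). *Txnip* was left out of these counts because it was chosen on these values. The count over the pathway lists, 1 with edgeR, was 2 with DESeq2, 0 with limma-voom, 6 without the filter, 2 with the replicate block, and 0 to 1 when each mouse was left out. Over all genes, the 16 calls became 37 with DESeq2, 178 without the filter, 41 with the replicate block, 38 without control 1 and 9 without *Slc39a8*-NSKO mouse 2. The cause of these changes was not tested. Mice of the same number correlated at 0.142, 0.116 and 0.0104 in their deviations from the group means. *Slc39a8*-NSKO mice 1 and 2 each correlated best with the control of the same number, and mouse 3 with control 2 (0.0665). The main fit did not pair the mice, and these values do not settle whether the numbers mark pairs. At this depth *Arrdc5* could not be tested.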
